A study of Mus musculus with 6 samples.

Results

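The core genes of the STING pathway were followed in whole tumors of the colon from mice with or without an induced deletion of STING in myeloid cells. They are the 8 genes Cgas (listed in the table under its older symbol Mb21d1), Tmem173 (the gene of STING), Tbk1, Ikbke, Irf3, Trex1, Enpp1 and Samhd1, taken by name from the 54532 genes of the deposited table. Of the 8, 7 reached the mean FPKM of 0.5 that was asked of a tested gene, and Trex1 was listed at 0 in every tumor. RNA-seq covered 3 Tmem173fl/fl AOM+DSS-L tumors, labelled AOM_WT, and 3 Tmem173iΔmye AOM+DSS-L tumors, labelled AOM_CRE. The mice of both groups were on the C57BL/6N background, carried floxed Tmem173 alleles, had colitis-associated cancer induced with azoxymethane (AOM, a colon carcinogen) and dextran sodium sulfate (DSS, which injures the colon lining), and received tamoxifen after 3 cycles of AOM/DSS, when tumors had formed. The Tmem173iΔmye mice also carried Lyz2-Cre ert2, a tamoxifen-dependent Cre driven by a gene of macrophages, monocytes and neutrophils. The design is meant to leave the floxed gene in epithelial, endothelial, stromal and lymphoid cells. The paper also treats dendritic cells grown from the bone marrow of such mice as lacking STING. Deletion in each cell type of the tumors was not measured here. The comparison asks how gene expression in the tumors differs when myeloid STING is deleted after tumor formation. The age of the mice in these groups, the exons between the loxP sites and whether a library holds 1 tumor or several are not given in the sources used here, so p-values measure the spread between these libraries.

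STING signalling starts when double-stranded DNA lies in the cytosol. The enzyme cGAS binds it and makes the cyclic dinucleotide cGAMP, which binds STING on the endoplasmic reticulum. STING then moves towards the Golgi and recruits the kinase TBK1, which phosphorylates IRF3, and IRF3 turns on type I interferon and other genes. TREX1, SAMHD1 and ENPP1 act against the pathway by degrading DNA, by limiting nucleotides and DNA intermediates at replication forks, and by hydrolysing cGAMP outside the cell. In the colon, STING is known from myeloid, endothelial and epithelial cells.

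The libraries held between 15329810 and 16533732 counts on genes. The epithelial markers Epcam and Krt20 had mean FPKM of 877 and 197 in the Tmem173fl/fl and 1038 and 223 in the Tmem173iΔmye tumors, and the myeloid marker Lyz2 had 198 and 190.1. Reads on Y-linked genes were present in Tmem173fl/fl tumor 1 and Tmem173iΔmye tumors 1 and 2, with 2655 to 3547 counts, and reached at most 2 counts in the other 3 tumors. The summed FPKM of 6 of 8 cell type marker lists was highest in Tmem173iΔmye tumor 1. For the myeloid list it was so by little, at 642 against 602 in Tmem173fl/fl tumor 1. The B cell genes Cd79a, Cd79b and Ms4a1 were highest in Tmem173fl/fl tumor 1, though their list was not. Tmem173iΔmye tumor 1 stood apart in the 6 neutrophil markers, which summed to 535 FPKM there against 78.8 to 249 in the other 5 tumors. All of these but Ly6g had their highest count there, with 2181 for S100a9 against 150 to 540 elsewhere. Ly6g had 993 counts there, below the 1573 and 1454 of Tmem173fl/fl tumors 1 and 3.

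None of the 7 measured core genes passed the study's threshold, a log2 fold change of 1 or more in either direction with an unadjusted p under 0.05, which 2.12% of the 16426 tested genes passed. Only Ikbke had an unadjusted p under 0.05 in edgeR's quasi-likelihood test (DESeq2 gave 2 such genes, Ikbke and Samhd1, and limma on log2(FPKM + 1) gave Ikbke), against 6.14% of all tested genes. No core gene and none of the 16426 genes (0.00%) had an adjusted p under 0.05 in edgeR, where the smallest adjusted p was 0.742. All fold changes are Tmem173iΔmye over Tmem173fl/fl. Of the 7 genes, 5 were above 0 and 2 below 0 on the log2 scale, with a median of 0.15 beside a median of -0.0042 over all tested genes. Irf3 and Ikbke were higher in every Tmem173iΔmye tumor than in any Tmem173fl/fl tumor, which held for 6.03% of all tested genes, and Enpp1 was lower in every Tmem173iΔmye tumor, which held for 6.47%. With 2 of 7 and 1 of 7, these counts are small, and nothing was read from them about the genes as a group.

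**Figure D1:**
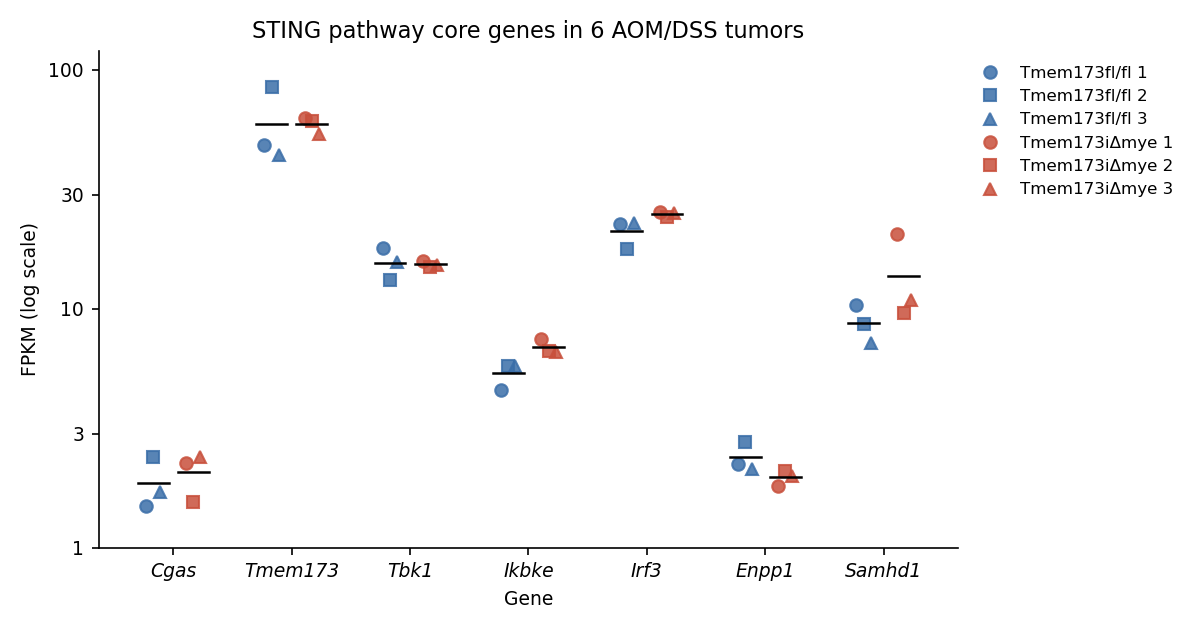
FPKM (log axis) of the 7 measured core genes in each tumor, with Tmem173fl/fl tumors in blue, Tmem173iΔmye tumors in red, 1 symbol per replicate number and a black bar at each group mean. The groups are apart for Ikbke, Irf3 and Enpp1 and overlap for Cgas, Tmem173, Tbk1 and Samhd1, and Tmem173 is the most abundant of them in all 6 tumors.

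FPKM is a level per gene length and 1 constant per library, so genes are compared here by the length used. For Ikbke it is 9018 bases and for Tbk1 3910, all merged exons of the gene, and the order below depends on such lengths. For Tmem173 it is 2302 bases, fewer than its 2741 merged exon bases in the annotation GENCODE M21. With the longer length the FPKM of Tmem173 would be lower. Tmem173 had the highest level of the 7 genes in 6 of 6 tumors, with a mean over the 6 tumors of 59.1 FPKM, above 94.7% of the tested genes. Irf3 followed at 23.0 FPKM and Tbk1 at 15.5 FPKM, and this order held in 6 of 6 tumors, with Tmem173 at 1.93 to 4.77 times the level of Irf3. Samhd1 came next at 11.2 FPKM. Its order with Tbk1 held in 5 of 6 tumors and was turned in Tmem173iΔmye tumor 1. Tbk1 was at 0.774 to 2.175 times the level of Samhd1, and their difference was not tested. Ikbke had a mean of 6.14 FPKM, below Samhd1 and above Enpp1 in 6 of 6 tumors. The lowest pair was Enpp1 at 2.18 FPKM and Cgas at 1.97 FPKM, whose order held in 4 of 6 tumors. The sensor of the pathway was thus far less abundant as RNA than its adaptor, with a ratio of Tmem173 to Cgas between 22.4 and 39.1 in single tumors. For 6 of the 7 genes the coefficient of variation of FPKM was larger among the Tmem173fl/fl tumors, and Samhd1 was the exception. That count was not set beside a share over all tested genes, and nothing was read from it about the core genes.

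Cgas encodes the DNA sensor that makes cGAMP. The gene lies on the minus strand of chromosome 9, from 78430526 to 78443237 (GRCm38, here and below). It had 96, 148 and 118 counts in Tmem173fl/fl tumors 1, 2 and 3, and 148, 103 and 156 counts in Tmem173iΔmye tumors 1, 2 and 3. The highest tumor of the first group was level with the highest of the second in FPKM, at 2.40 and 2.39, and the groups overlapped. The means were 1.86 ± 0.474 FPKM (SD, n = 3) and 2.07 ± 0.447 FPKM (SD, n = 3). On the log2 scale the fold change was 0.15 (SE 0.27, edgeR adjusted p = 0.896), with a 95% interval from -0.48 to 0.79. At this depth the interval spans from 71.6% to 173% of the Tmem173fl/fl level.

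Tmem173, the deleted gene, lies on the minus strand of chromosome 18, from 35733678 to 35740554. Its FPKM was 48.6, 84.5 and 44.2 in Tmem173fl/fl tumors 1, 2 and 3 and 62.7, 61.0 and 53.7 in Tmem173iΔmye tumors 1, 2 and 3. The Tmem173iΔmye tumors lay between the lowest and the highest Tmem173fl/fl tumor, and Tmem173fl/fl tumor 2 stood above all others. The means were 59.1 ± 22.1 FPKM (SD, n = 3) and 59.1 ± 4.75 FPKM (SD, n = 3), and the log2 fold change was 0.0015 (SE 0.24, edgeR adjusted p = 1.0). Its 95% interval, from -0.56 to 0.56, covers levels in the Tmem173iΔmye tumors from 68.0% to 147% of the Tmem173fl/fl level. The fitted value was too close to 0 to carry a direction: it was -0.12 without Tmem173fl/fl tumor 1, -0.17 without Tmem173fl/fl tumor 3, and -0.04 and -0.02 without Tmem173iΔmye tumors 1 and 2. Without Tmem173fl/fl tumor 2 it was 0.34 (unadjusted p = 0.029, adjusted p = 0.745 in edgeR). The tumors with Y-linked reads gave a difference of mean log2 FPKM of 0.35 (1 Tmem173fl/fl against 2 Tmem173iΔmye) and the others one of -0.19 (2 against 1). The counts are per gene, so reads from a deleted and an intact allele were not separated.

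Since myeloid cells are a part of a tumor, Tmem173 was also set against markers of myeloid and endothelial cells within each tumor. Relative to the mean log2(FPKM + 0.1) of 12 myeloid markers, the log2 level of Tmem173 was 1.82, 2.90 and 1.87 in Tmem173fl/fl tumors 1, 2 and 3 and 1.84, 1.98 and 2.27 in Tmem173iΔmye tumors 1, 2 and 3. Tmem173fl/fl tumor 2 was again the highest, and the groups overlapped. The difference of the group means, Tmem173iΔmye minus Tmem173fl/fl, was -0.17 on the log2 scale (exact two-sided permutation p = 0.90, 0.90 after Benjamini-Hochberg adjustment over 4 within-tumor ratios), where 3 tumors against 3 cannot go below p = 0.10. Relative to 6 endothelial markers the difference was -0.11 (exact permutation p = 0.90, adjusted p = 0.90). Without Tmem173fl/fl tumor 2 both turned, to 0.18 and 0.16. The myeloid markers themselves, all 12 of 12 detected, summed to 377 to 602 FPKM in Tmem173fl/fl and 377 to 642 FPKM in Tmem173iΔmye tumors. In bulk RNA, fewer cells of a type and less RNA per cell cannot be told apart.

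Of 8105 protein-coding genes whose mean FPKM reached 5, the 3 whose centred log2 CPM over the 6 tumors lay closest to that of Tmem173 were Srbd1, Rnpep and Ndc1, with root mean square differences of 0.053, 0.061 and 0.063 beside a median of 0.337. Like Tmem173, they were highest in Tmem173fl/fl tumor 2, with 423, 4243 and 740 counts there. For Cgas the closest were Uhrf1, Inhba and Spef1, at 0.077, 0.080 and 0.083. These are likenesses over 6 libraries that share depth and composition, and are given as a description.

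**Figure D2:**
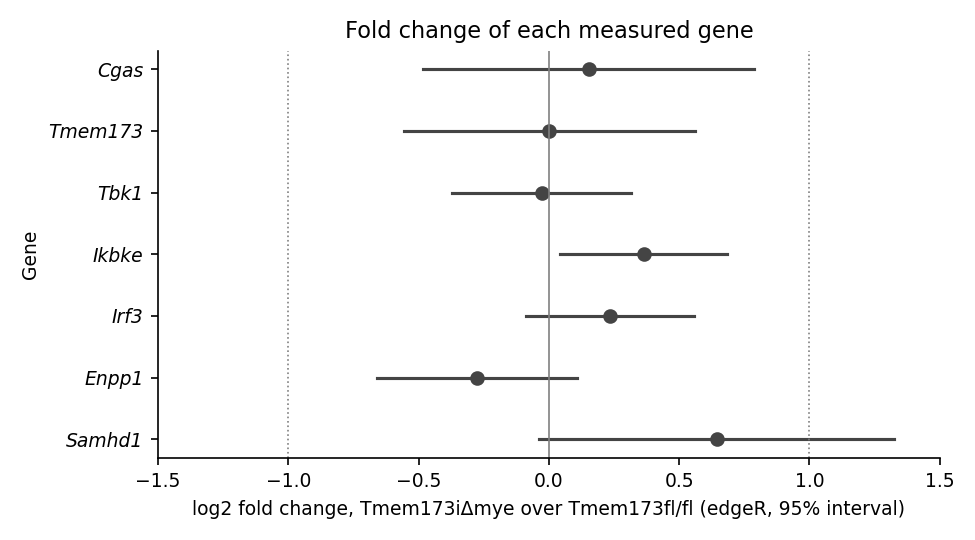
The log2 fold change of each measured core gene (points) with its 95% interval (lines) from edgeR, in the order sensor, adaptor, kinases, transcription factor and negative regulators, with dotted lines at the fold of the study's threshold. The interval leaves out 0 for Ikbke alone, from 0.04 to 0.69, and reaches past 1 for Samhd1 alone.

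Tbk1 and Ikbke encode the related kinases TBK1 and IKKε, which phosphorylate STING and IRF3. Tbk1 lies on the minus strand of chromosome 10, from 121546455 to 121586787, and Ikbke on the minus strand of chromosome 1, from 131254343 to 131279606. Tbk1 had 18.0, 13.1 and 15.7 FPKM in Tmem173fl/fl tumors 1, 2 and 3 and 15.9, 14.9 and 15.2 FPKM in Tmem173iΔmye tumors 1, 2 and 3. All Tmem173iΔmye tumors lay inside the range of the other group, with a log2 fold change of -0.03 (SE 0.15, edgeR adjusted p = 0.968) and a 95% interval from 77.4% to 124% of the Tmem173fl/fl level. Ikbke had 4.58, 5.75 and 5.77 FPKM in Tmem173fl/fl tumors 1, 2 and 3 and 7.50, 6.65 and 6.56 FPKM in Tmem173iΔmye tumors 1, 2 and 3. It was higher in 3 of 3 Tmem173iΔmye tumors, with no overlap, at 129% of the Tmem173fl/fl level (95% interval 103% to 161%). The log2 fold change was 0.36 (SE 0.14, unadjusted p = 0.032), and it did not pass the correction over all genes (edgeR adjusted p = 0.742, and 0.524 to 1.0 over 15 alternatives). The unadjusted p of Ikbke went above 0.05 when any of 4 tumors was left out: it was 0.104 without Tmem173fl/fl tumor 1 and 0.089, 0.063 and 0.058 without Tmem173iΔmye tumors 1, 2 and 3.

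The balance of the kinases was compared within tumors. Per gene length Tbk1 was the more abundant, at 3.93, 2.29 and 2.72 times the FPKM of Ikbke in Tmem173fl/fl tumors 1, 2 and 3 and 2.12, 2.24 and 2.32 times in Tmem173iΔmye tumors 1, 2 and 3. The ratio was widest in Tmem173fl/fl tumor 1, and tumor 2 of that group lay inside the range of the Tmem173iΔmye tumors. In raw counts Ikbke was ahead in Tmem173fl/fl tumor 2 (776 against 769) and Tmem173iΔmye tumors 1 (1074 against 988) and 2 (960 against 931). The level of Tbk1 above Ikbke thus depends on the gene lengths, while the comparison between groups does not. As log2 of Ikbke over Tbk1 the groups differed by 0.38 (exact permutation p = 0.20, adjusted p = 0.60). For Cgas over Enpp1, the enzymes that make and hydrolyse cGAMP, the log2 ratio was -0.38 ± 0.19 (SD, n = 3) in Tmem173fl/fl and 0.05 ± 0.42 (SD, n = 3) in Tmem173iΔmye tumors, a difference of 0.43 (exact permutation p = 0.30, adjusted p = 0.60). No ratio of Cgas to Trex1 could be formed, since Trex1 was at 0.

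Irf3 encodes the transcription factor that TBK1 activates, and lies on the plus strand of chromosome 7, from 44997648 to 45002848. It had 22.7, 17.7 and 22.9 FPKM in Tmem173fl/fl tumors 1, 2 and 3 and 25.3, 24.3 and 25.1 FPKM in Tmem173iΔmye tumors 1, 2 and 3. Every Tmem173iΔmye tumor was above every Tmem173fl/fl tumor, and Tmem173fl/fl tumor 2 was the lowest. The Tmem173iΔmye tumors were close together, at 24.9 ± 0.566 FPKM (SD, n = 3), against 21.1 ± 2.94 FPKM (SD, n = 3). Its log2 fold change was 0.23 (SE 0.14, edgeR adjusted p = 0.742), and without Tmem173fl/fl tumor 2 it was 0.12. Of its exon bases, 2.6% are shared with Bcl2l12 on the opposite strand, and the strand setting of the counting is not given in the sources used here.

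Enpp1 encodes the ectoenzyme that hydrolyses extracellular cGAMP, and lies on the minus strand of chromosome 10, from 24637914 to 24712159. It had 2.24, 2.78 and 2.14 FPKM in Tmem173fl/fl tumors 1, 2 and 3 and 1.81, 2.10 and 2.0 FPKM in Tmem173iΔmye tumors 1, 2 and 3. It was lower in 3 of 3 Tmem173iΔmye tumors, though tumor 2 of that group and tumor 3 of the other were nearly level. On the log2 scale the fold change was -0.28 (SE 0.17, edgeR adjusted p = 0.747), or 82.6% of the Tmem173fl/fl level with a 95% interval from 63.3% to 108%, and without Tmem173fl/fl tumor 2 it was -0.16.

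Samhd1 encodes a dNTP hydrolase that also acts at stalled replication forks, and is itself interferon-inducible in many cells. It lies on the minus strand of chromosome 2, from 157097533 to 157135265. It had 10.4, 8.60 and 7.20 FPKM in Tmem173fl/fl tumors 1, 2 and 3 and 20.6, 9.63 and 10.8 FPKM in Tmem173iΔmye tumors 1, 2 and 3. Tmem173iΔmye tumor 1 stood above all other tumors, and tumor 2 of that group lay below Tmem173fl/fl tumor 1. The log2 fold change was 0.64 (SE 0.29, unadjusted p = 0.061, edgeR adjusted p = 0.742), the largest of the 7 genes, with a 95% interval from 97.4% to 251% of the Tmem173fl/fl level. Without Tmem173iΔmye tumor 1 it was 0.23 (unadjusted p = 0.254). The summed neutrophil markers, though not Ly6g among them, were also highest in that tumor, as given above. Their part in the level of Samhd1 was not tested.

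**Figure D3:**
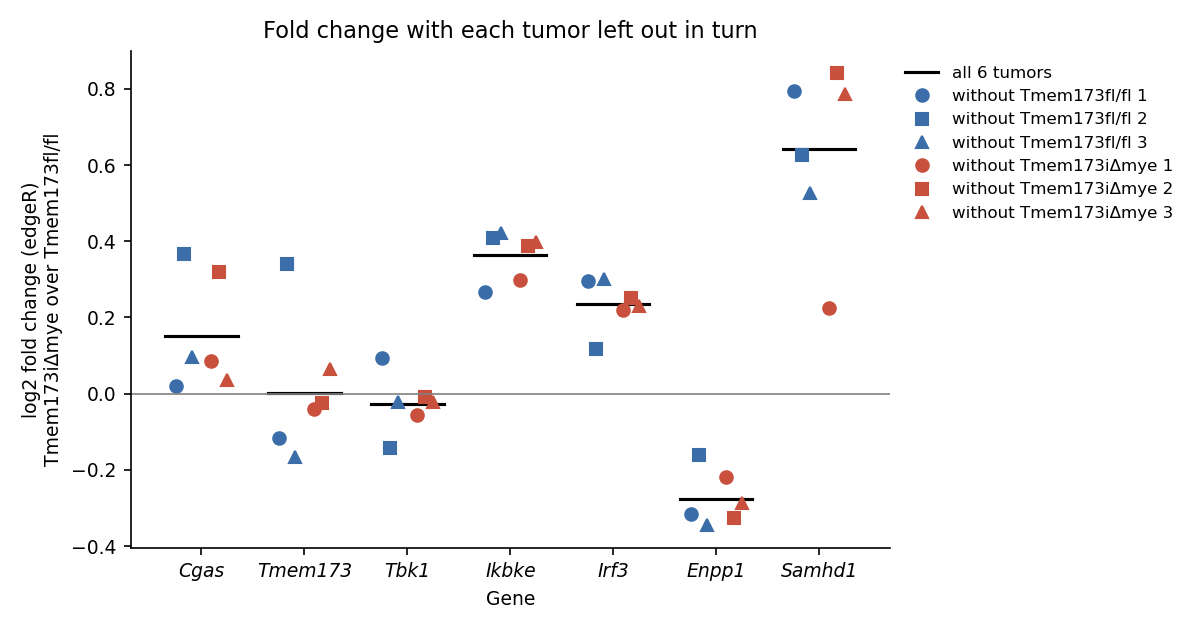
The edgeR log2 fold change of each core gene with all 6 tumors (black bars) and with each tumor left out in turn (blue for a Tmem173fl/fl tumor, red for a Tmem173iΔmye tumor). Samhd1 drops to 0.23 without Tmem173iΔmye tumor 1, Tmem173 moves between -0.17 and 0.34, and Ikbke stays between 0.27 and 0.42.

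Trex1 encodes the main DNA exonuclease of the cytosol and lies on the minus strand of chromosome 9, from 109057933 to 109059734. It had 0 counts in all 6 tumors. In GENCODE M21, all 1147 exon bases of Trex1 also belong to exons of Atrip, a gene of the replication stress response, on the same strand. The start of the Trex1 coding sequence is shown because 3 of the 9 annotated Atrip transcripts hold it letter for letter, with the start codon in capitals (chr9:109058862-109058921, minus strand, GENCODE M21 transcript Trex1-201).
Trex1 coding start: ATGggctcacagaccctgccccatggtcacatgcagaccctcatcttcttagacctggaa
A read from these bases carries nothing that assigns it to either gene. Atrip had 251, 404 and 343 counts in Tmem173fl/fl tumors 1, 2 and 3 and 302, 263 and 356 counts in Tmem173iΔmye tumors 1, 2 and 3, with a log2 fold change of -0.13 (SE 0.23, edgeR adjusted p = 0.892). The groups overlapped. Whether reads lying in both genes were counted for Atrip or left out of both was not tested. The Atrip counts are therefore not read as a measure of Trex1 RNA.

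Genes in the position of Trex1 were then counted over the whole table. Of 177 protein-coding genes whose exon bases all lie inside exons of other genes, 155 (87.6%) were at 0 in all 6 tumors, against 3443 of 15485 (22.2%) with no such base and 371 of 6366 (5.83%) with some. The value of 0 for Trex1 is therefore given as the value of the table and not as an absence of Trex1 RNA. For the other core genes the shared part was at most 4.9% of exon bases, and always with a gene on the opposite strand.

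**Figure D4:**
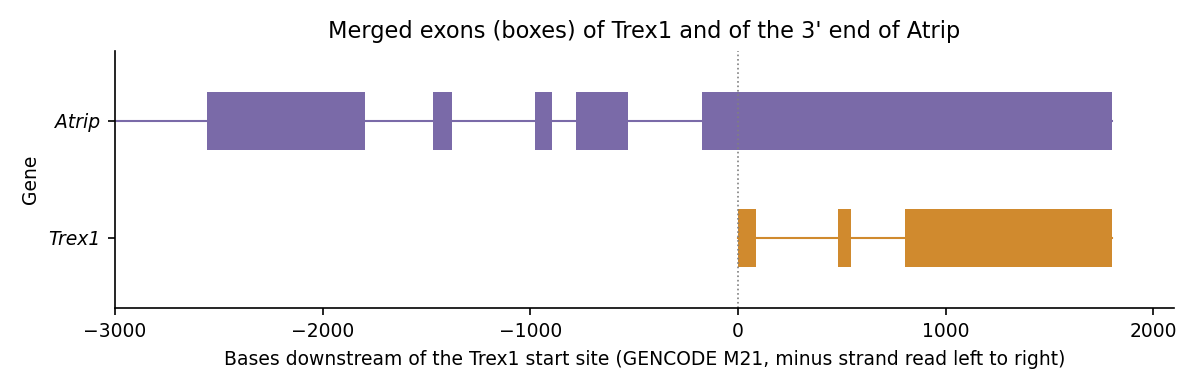
Merged exons (boxes) of Trex1 and of the 3′ end of Atrip in GENCODE M21, drawn in bases downstream of the Trex1 start site with transcription from left to right. Each of the 3 merged exons of Trex1 lies inside the last merged exon of Atrip.

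The genes around the core were taken as 6 lists of 76 genes, of which 69 were tested. These lists were chosen with earlier results of these data known. Past the study's threshold were 6 genes, all higher in the Tmem173iΔmye tumors, beside 1.26% of all tested genes in that direction, and 5 of them stood in the list of genes that STING signalling induces. The median log2 fold change over the 69 genes was -0.03. The other 5 lists had medians from -0.12 to 0.02, and Tmem173iΔmye tumor 1 was the highest tumor for each of the 6 genes.

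**Figure D5:**
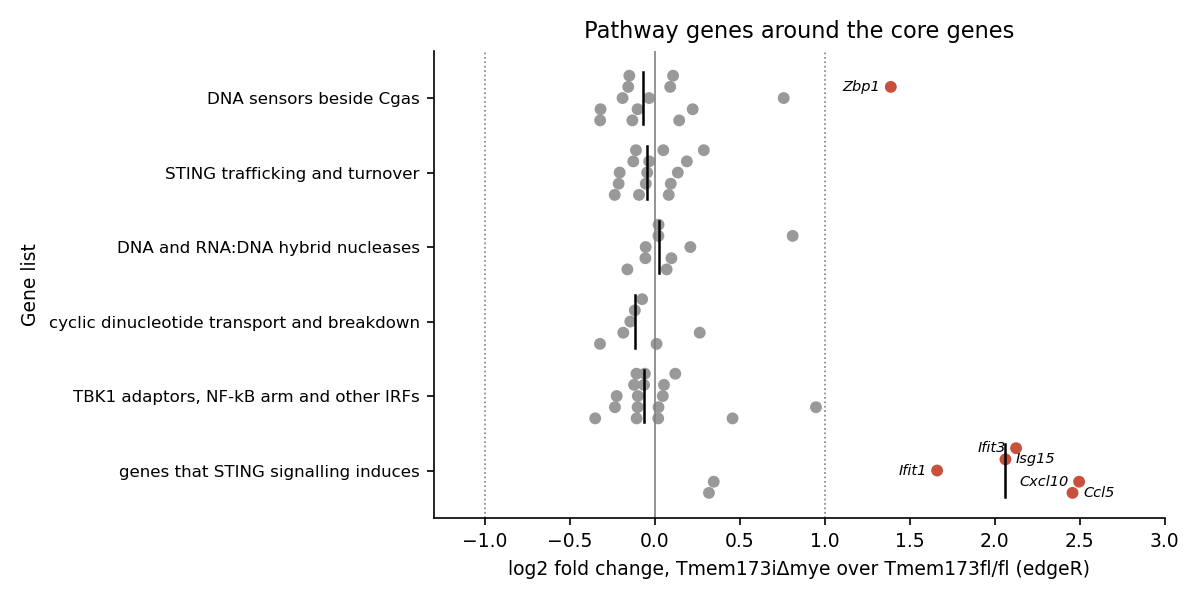
The edgeR log2 fold change of the 69 tested pathway genes by list, with a black bar at each list's median and dotted lines at the fold of the study's threshold. The 6 genes past the threshold are named and in red, and Zbp1 is the only one outside the list of induced genes.

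Among 14 DNA sensors beside Cgas, 1 passed and the median was -0.07. Zbp1, a sensor of Z-form nucleic acids, had 897, 488 and 427 counts in Tmem173fl/fl tumors 1, 2 and 3 and 3150, 695 and 975 counts in Tmem173iΔmye tumors 1, 2 and 3. The groups overlapped, with a log2 fold change of 1.39 (SE 0.57, edgeR adjusted p = 0.742) that was 0.45 without Tmem173iΔmye tumor 1. Ifi204, a DNA-binding protein of the Ifi200 family, had 0.76 (SE 0.53) and Pqbp1, which helps cGAS recognise reverse-transcribed DNA, had 0.22 (SE 0.16).

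Of 15 genes of STING trafficking and turnover 0 passed the threshold and 0 had an unadjusted p under 0.05 in edgeR, with a median of -0.05 and values from -0.24 to 0.29. Ulk1, a kinase that limits STING signalling, had -0.24 (SE 0.14) and was lower in every Tmem173iΔmye tumor. Of 9 nucleases of DNA and RNA:DNA hybrids 0 passed, with a median of 0.02. Rnaseh2c, a subunit of RNase H2, had 413, 385 and 352 counts in Tmem173fl/fl tumors 1, 2 and 3 and 967, 547 and 528 counts in Tmem173iΔmye tumors 1, 2 and 3, with no overlap and a log2 fold change of 0.81 (SE 0.26, unadjusted p = 0.014, edgeR adjusted p = 0.742). It was 0.47 without Tmem173iΔmye tumor 1. Rnaseh2b, another subunit of the same enzyme, had -0.16 (SE 0.15).

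Of 9 genes of cyclic dinucleotide transport and breakdown, 7 were tested and 0 passed, with a median of -0.12. Lrrc8e, a subunit of a volume-regulated anion channel that carries cGAMP, had -0.32 (SE 0.21), and P2rx7, an ATP-gated channel, had 0.26 (SE 0.20). Of 17 genes of TBK1 adaptors, the NF-κB arm and other IRFs 0 passed, with a median of -0.06. Irf7, the interferon-inducible relative of Irf3, had 986, 584 and 605 counts in Tmem173fl/fl tumors 1, 2 and 3 and 2042, 995 and 1211 counts in Tmem173iΔmye tumors 1, 2 and 3. Once the libraries were scaled by TMM, its groups overlapped. The log2 fold change of Irf7, 0.95 (SE 0.32, unadjusted p = 0.018, edgeR adjusted p = 0.742), lay just under the fold of the threshold and was 0.59 without Tmem173iΔmye tumor 1. Traf6, a ubiquitin ligase of the NF-κB arm, had -0.35 (SE 0.17).

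In the list of 12 induced genes, 7 were tested, 5 passed and all 7 were above 0 on the log2 scale. Their median was 2.06 beside -0.0042 over all tested genes. Since the list was chosen with earlier results of these data known, this contrast is a description and no test of the list. The interferons Ifnb1 and Ifna4 and the cytokines Il6, Il12a and Il12b were under the FPKM filter. Ifit3, an interferon-induced antiviral gene, had 95, 76 and 54 counts in Tmem173fl/fl tumors 1, 2 and 3 and 574, 178 and 247 counts in Tmem173iΔmye tumors 1, 2 and 3. Its groups did not overlap, and the log2 fold change was 2.12 (SE 0.47, unadjusted p = 0.0020, edgeR adjusted p = 0.742). DESeq2 gave Ifit3 an adjusted p of 0.0048, and over the leave-one-out fits its log2 fold change stayed between 1.48 and 2.43.

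For Cxcl10, Ccl5 and Isg15 the value was lower without Tmem173iΔmye tumor 1. Cxcl10, a chemokine for T cells, had 103, 65 and 102 counts in Tmem173fl/fl tumors 1, 2 and 3 and 1282, 96 and 156 counts in Tmem173iΔmye tumors 1, 2 and 3. Tmem173iΔmye tumor 2 thus lay in the range of the Tmem173fl/fl tumors and tumor 3 above it. The log2 fold change of 2.50 (SE 0.91) was 0.48 without Tmem173iΔmye tumor 1. Ccl5, another T cell chemokine, had 2.46 (SE 0.90), and Isg15, a ubiquitin-like modifier, 2.06 (SE 0.82), with 0.95 and 1.21 without that tumor. Ccl5 had 17, 5 and 30 counts in Tmem173fl/fl tumors 1 to 3 and 218, 38 and 29 in Tmem173iΔmye tumors 1 to 3. Isg15 had 205, 61 and 22 against 779, 207 and 249 counts in the same order, and its groups overlapped. The value of Isg15 was 3.28 without Tmem173fl/fl tumor 1 and 1.58 without Tmem173fl/fl tumor 3. Ifit1, a sensor of foreign RNA ends, had 1.66 (SE 0.56) and 1.44 without Tmem173iΔmye tumor 1. The adjusted p of each was 0.742 in edgeR. Without Tmem173iΔmye tumor 1, Ifit3 was the only one of the 69 pathway genes past the threshold. The cytokines Tnf, with 0.35 (SE 0.39), and Il23a, with 0.32 (SE 0.36), did not pass.

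Markers of other cell types are given for the same tumors. The T cell markers summed to 5.51 to 8.80 FPKM in Tmem173fl/fl and 7.77 to 14.7 FPKM in Tmem173iΔmye tumors, with overlap. The endothelial markers summed to 19.2 to 19.99 and 22.4 to 25.9 FPKM, the only list whose groups did not overlap. Of these 6 markers 4 had a log2 fold change above 0, while Vwf had -0.05 and Tek -0.17. No marker of either list was at 0, and at most 1 marker of any list had an unadjusted p under 0.05 in edgeR. Neutrophil markers reached 535 FPKM in Tmem173iΔmye tumor 1 and 127 to 135 FPKM in tumors 2 and 3 of that group. Epithelial markers summed to 4460 to 4892 and 4676 to 5615 FPKM, fibroblast markers to 208 to 264 and 217 to 318 FPKM, smooth muscle markers to 112 to 163 and 91.8 to 150.3 FPKM, and B and plasma cell markers to 34.8 to 119 and 79.5 to 159 FPKM, each with overlap. The last sum was largely Jchain, a plasma cell gene with a log2 fold change of 1.10, while the B cell genes Cd79a, Cd79b and Ms4a1 had -0.68, -0.65 and -1.24 and only 2 of the 5 markers were above 0. Their part in the values of the STING pathway genes was not tested.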

How the data were processed

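Per the labels, polyA RNA of tumors was made into libraries with the NEBNext Ultra kit. The authors deposited 1 table with raw read counts per gene and FPKM per gene, and its columns of their own fold changes, coded as Tmem173fl/fl over Tmem173iΔmye, and p-values were not used. Directions here come from the per-tumor count columns, matched by sample title. The submitters' processing notes name HISAT2 2.0.5, featureCounts 1.5.0-p3 and GRCm38. Each deposited FPKM equals the count divided by gene length and 1 constant per library. That constant is not the library's total of counts. It stands for 14961628 reads in Tmem173fl/fl tumor 2, with 15556916 counts, and for 16768033 in tumor 3 of that group, with 15968400. Whether it holds a scaling between libraries was not tested.

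Groups came from the sample titles. The count test was edgeR's quasi-likelihood test (version 4.0.16, under R 4.3.3). Libraries were scaled by TMM, the model held only the group, and p-values were adjusted by Benjamini-Hochberg over 16426 genes, those whose mean FPKM reached 0.5. Intervals are at 95%. The alternatives were median-of-ratios scaling, any count or a mean FPKM of 1 as filter, protein-coding genes alone, DESeq2 1.42.0, limma 3.58.1 on log2(FPKM + 1) and log2(FPKM + 0.1), the replicate number as a block, Y-linked reads as a term and leaving out each tumor. The scripts were tested on simulated counts. Within-tumor ratios were compared by exact permutation tests in Python 3.11.15. Exon overlaps came from GENCODE M21, which lists the same start and end for 53585 of the 54495 genes it shares with the table.

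All 8 core genes were described. Of each pathway list, the genes past the study's threshold and the 2 others with the lowest p were named. A gene named by this rule and the promoter motif search are not reported here. The members and lists were chosen with earlier results of these data known.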

Additional observations from a re-analysis of the deposited data

How the results depend on the processing

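In each of the 15 alternatives 0 core genes passed the study's threshold, and over its 8 alternatives the number higher in every Tmem173iΔmye tumor was 2 or 3. The log2 fold change of Tmem173, close to 0 with all tumors, changed sign to -0.0059 under median-of-ratios scaling, to -0.00030 with protein-coding genes alone and to -0.0059 with DESeq2. With 1 tumor left out it ranged from -0.17 to 0.34, and that of Tbk1 from -0.14 to 0.093, Ifi204 from -0.064 to 1.06 and Tnf from -0.24 to 0.67. Tmem173 relative to myeloid markers ranged from -0.36 to 0.18, and relative to endothelial markers from -0.27 to 0.16. The causes were not tested beyond the tumors named above. Of the pathway genes, 6 passed the threshold with all tumors, 3 with either pseudocount in limma, 3 with Y-linked reads as a term, and 1 to 7 with 1 tumor left out, with 2 without Tmem173fl/fl tumor 2 and 3 without Tmem173fl/fl tumor 3.

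The replicate numbers of the titles share only a number: deviations of same-numbered tumors correlated at 0.274, 0.000 and 0.137, and not every tumor correlated best with its own number. With the replicate number as a block, the unadjusted p of Samhd1 was 0.013 (log2 fold change 0.58, adjusted p = 0.442), the pathway count stayed at 6 and 377 genes passed the threshold instead of 349. The differences of 0.38 for Ikbke over Tbk1 and 0.43 for Cgas over Enpp1 stayed the same with the block. With 1 tumor of each group per number, a block cannot change a difference of group means, so this tests nothing. Over all genes, 872 passed with any count as filter, 136 with limma on log2(FPKM + 1), 211 with Y-linked reads as a term, 636 without Tmem173fl/fl tumor 1 and 218 without Tmem173fl/fl tumor 3. At an adjusted p under 0.05 DESeq2 called 28 genes, the fit with any count 6 and the fit without Tmem173iΔmye tumor 1 called 1, none of them a core gene. With 3 tumors a group, the 95% intervals of the core genes began between -0.66 and 0.04 and ended between 0.11 and 1.33 on the log2 scale, and counts per gene cannot show a deleted exon or separate Trex1 from Atrip.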
